A study of Homo sapiens with 12 samples.

Results

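The BCL2 family decides at the mitochondrial surface whether a stressed cell lives or dies, and 10 of its genes are described here in ovarian cancer cells treated with the transcriptional inhibitor THZ1. The 10 genes were taken by exact row name from 23621 gene rows of each expression table: the survival genes MCL1, BCL2L1, BCL2, BCL2L2 and BCL2A1, the effectors BAX and BAK1, and the BH3-only genes BCL2L11, PMAIP1 and BBC3. All 10 names were found in both tables. RNA-seq was carried out on KURAMOCHI (Ku) and COV362 (Cov) cells, human ovarian cancer lines labelled as untransduced controls, after 6 hr with DMSO, 50 nM THZ1 or 250 nM THZ1. Each of these 6 groups held 2 replicates, given in the series as biological duplicates, so 12 libraries in all, and nothing further says how the duplicates were grown. THZ1 is a covalent inhibitor of CDK7, CDK12 and CDK13, kinases that act on RNA polymerase II.

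Survival proteins of the family hold BAX and BAK in check, and BH3-only proteins bind into a groove of the survival proteins and set the effectors free. Once active, BAX and BAK open the outer mitochondrial membrane, cytochrome c leaks out and caspases are switched on. MCL-1, the product of MCL1, is a short-lived protein made from a short-lived mRNA, and for that reason is a familiar marker of drugs that stop transcription. BCL2L1 encodes BCL-xL, BCL2L2 encodes BCL-w, BCL2A1 encodes BFL-1, BCL2L11 encodes BIM, PMAIP1 encodes NOXA and BBC3 encodes PUMA. Some of these genes make proteins of opposite effect by splicing, such as the long and short forms of MCL-1 and of BCL-x, and the gene rows used here sum all transcripts.

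Promoter sequence is shown for 4 members, chosen after their values were seen and by different doses. PMAIP1 and BCL2L11 are those whose 50 nM libraries overlapped or exceeded the DMSO libraries in both lines, and BAK1 and BCL2L1 were among the most reduced in both lines at 250 nM. Each window runs from 250 to 31 bases before the annotated start (220 bases, RefSeq, GRCh38.p14, 5′ to 3′ on the strand of the gene), and capitals mark GC, CCAAT and TATA boxes, each searched on both strands by the letters given below. None of these matches overlapped another.
PMAIP1 (chr18:59899746-59899965, plus strand): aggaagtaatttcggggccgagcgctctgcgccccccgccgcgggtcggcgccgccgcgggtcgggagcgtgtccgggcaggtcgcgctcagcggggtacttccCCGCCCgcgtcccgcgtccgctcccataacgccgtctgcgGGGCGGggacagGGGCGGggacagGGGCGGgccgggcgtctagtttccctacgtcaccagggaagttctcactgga
BCL2L11 (chr2:111120664-111120883, plus strand): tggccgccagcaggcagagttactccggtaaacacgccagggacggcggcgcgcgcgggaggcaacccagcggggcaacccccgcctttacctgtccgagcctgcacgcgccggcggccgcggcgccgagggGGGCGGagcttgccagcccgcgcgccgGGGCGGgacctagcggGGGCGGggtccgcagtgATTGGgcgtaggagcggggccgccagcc
BAK1 (chr6:33580307-33580526, minus strand): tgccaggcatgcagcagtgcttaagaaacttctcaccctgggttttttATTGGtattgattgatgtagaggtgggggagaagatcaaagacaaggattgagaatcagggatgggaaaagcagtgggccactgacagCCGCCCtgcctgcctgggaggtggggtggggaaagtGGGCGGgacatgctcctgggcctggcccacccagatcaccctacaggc
BCL2L1 (chr20:31723994-31724213, minus strand): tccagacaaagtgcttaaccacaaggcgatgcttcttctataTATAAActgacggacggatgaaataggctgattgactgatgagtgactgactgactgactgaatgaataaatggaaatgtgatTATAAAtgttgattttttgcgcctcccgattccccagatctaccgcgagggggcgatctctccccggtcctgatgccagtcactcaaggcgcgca

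The windows of PMAIP1 and BCL2L11 were 74.1% and 77.7% G or C, against a median of 57.7% over 35116 promoter windows of the same length. They held 33 and 32 CpG dinucleotides. BAK1 was at 56.4% with 2 CpG, and BCL2L1 was at 47.3% with 11. GC boxes, spelled GGGCGG, were found 4 times in PMAIP1, 3 times in BCL2L11 and 2 times in BAK1, and 38.9% of all windows hold at least 1. The BCL2L1 window had 2 matches to the TATA box, spelled TATAAA, at -208 and -125 from the annotated start, a motif present in 8.08% of windows. No window reaches closer to the start than 31 bases, so matches nearer to it were not searched. This gene has a second annotated start, whose window is not shown. CCAAT boxes, spelled by their name, were found once in BCL2L11 and once in BAK1, against 29.8% of windows. Letters of the E box (CACGTG, 5.40% of windows) and of the cyclic AMP response element (TGACGTCA, 1.27%) were searched on both strands too and were in none of the 4 windows, though E boxes were found 3 times in BAX and once in BBC3. The windows of members not shown ranged from 38.6% G or C in BCL2A1 to 70.9% in BCL2, which held 24 CpG, with BBC3 at 50.0%, BAX at 61.4% and the second start of BCL2L1 at 56.8%. With 4 windows chosen by their genes' values, no relation between sequence and response was tested. These matches describe the letters only. Of the 10 members, 8 had an entry among the promoter sequences used, all but MCL1 and BCL2L2.

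The data were deposited as FPKM, a level per transcript length that the authors had set to ERCC spike-in RNAs added in proportion to cell number. The scale therefore refers to cells, not to total RNA. In a bulk sample a fall in all cells and a larger fall in part of them cannot be told apart. Summed FPKM went from 1227780 to 1234310 in Ku DMSO libraries to between 607016 and 662890 at 250 nM, and from 1472390 to 1686570 in Cov DMSO libraries to between 758681 and 764273. Replicates correlated at r = 0.968 to 0.983 across genes, which are not independent replicates. Of 7 ovarian and epithelial markers, 6 were above 1 FPKM in the DMSO libraries of each line, among them PAX8 at 132 to 139.97 FPKM in Ku and 120.3 to 128 in Cov, whereas MUC16 in Ku and WT1 in Cov were below 1. Leukocyte genes summed to at most 2.13 FPKM in any library, endothelial genes to at most 3.11 and fibroblast genes to at most 12.1, with CD3E in each DMSO library at the low value that a large block of rows shares. Read depth is unknown from these files. Calls are from limma on log2(FPKM + 1) and needed a log2 fold change beyond 0.5 as well as an adjusted p under 0.001, by Benjamini-Hochberg over 14251 active genes (over 1 FPKM in any library). All 10 members were among the active genes, and BCL2A1 was so only through Cov DMSO replicate 2. The adjusted p values of genes come from this limma fit unless another setting is named, those of ratios from a permutation test described there, and every fold change of a gene is on the log2(FPKM + 1) scale, which understates changes of low genes. The tables of the lines were normalized separately, so levels are compared within a line only and no difference between lines was tested.

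On the spike-in scale most of the family was lower at 250 nM and part of it at 50 nM. In Ku cells 2 of the 9 measurable members (all but BCL2A1) were called lower at 50 nM (BCL2L2 and BAX), where 11.3% of active genes were called lower. At 250 nM 6 of 9 were called lower (MCL1, BCL2L1, BCL2L2, BAX, BAK1 and BBC3), against 68.6% of active genes. In Cov cells 6 of 10 members were called lower at 50 nM (MCL1, BCL2L1, BCL2L2, BAX, BAK1 and BBC3), against 70.5%, and 9 of 10 at 250 nM, all but BCL2, against 84% of active genes. Without BCL2A1, which 1 DMSO library alone brought among the active genes, this was 8 of 9. No member was called higher by limma at either dose in either line, where 0.0842% and 0.0491% of active genes were called higher in Ku and 0.0772% and 0.105% in Cov. At an unadjusted p under 0.05, 1 member was higher, BCL2L11 in Ku at 50 nM. The median log2 fold change of the members was -0.41 in Ku at 50 nM and -1.48 at 250 nM, and that of all active genes was -0.40 and -1.11. In Cov the members' medians were -0.94 and -1.45, beside -0.85 and -1.31 for all active genes. Between the doses, however, the members' median was -1.78 in Ku and -0.83 in Cov, beside -0.62 and -0.41 for all active genes. At 250 nM against DMSO single members ranged from -3.21 to -0.79 in Ku and from -2.40 to -0.76 in Cov.

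**Figure D1:**
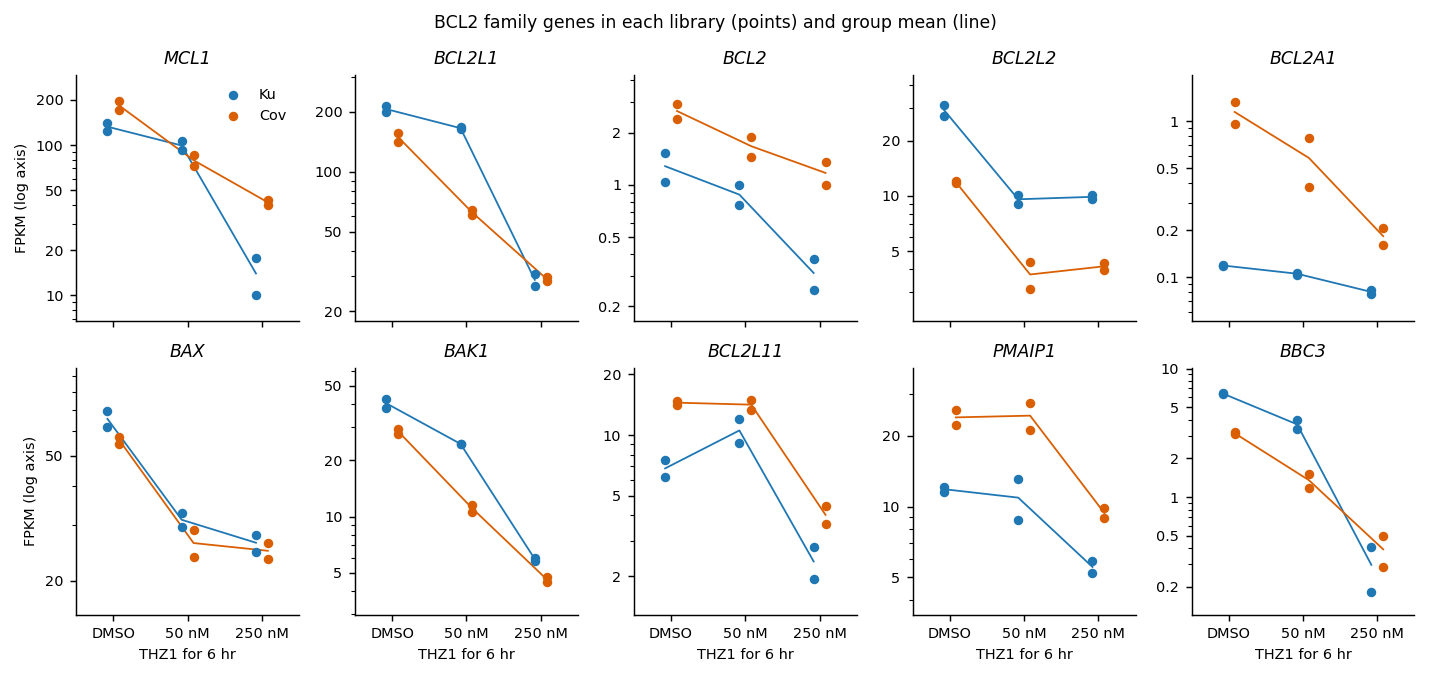
FPKM (log axis) of each of the 10 genes in the 12 libraries (points) and group means (lines) at DMSO, 50 nM and 250 nM THZ1, with Ku in blue and Cov in orange. On this spike-in scale MCL1 and BCL2L1 in Ku dropped mainly between 50 and 250 nM, BAX and BCL2L2 had made most of their change by 50 nM (with libraries scaled to equal medians both were above DMSO at 250 nM), and BCL2A1 in Ku lay at the low value shared by 5278 rows. The lines were normalized separately.

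MCL1 (chr1:150533371-150552214, minus strand, GRCh37) was among the most abundant members. Its level in the DMSO libraries of Ku cells was 142 and 124 FPKM, at 50 nM it was 106 and 92.6 FPKM, and at 250 nM 10.1 and 17.8 FPKM. The groups did not overlap, yet the step to 50 nM was not called (log2 fold change -0.41 ± 0.24 SE, adjusted p = 0.193). That SE is pooled over the groups of the line, the 250 nM duplicates among them. With only the 2 groups fitted the adjusted p was 0.025, which is no call either. The step to 250 nM left 10.5% of the DMSO level (-3.21 ± 0.24, adjusted p = 4.54e-05), and 2.60% of active genes fell more. Both 250 nM libraries were far below every other library, and as a ratio they differed from each other more than the duplicates of the other doses did, though less in FPKM.

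In Cov cells MCL1 was called lower at the low dose already on the spike-in scale. With equal medians it was at 0.015, beside 0.13 for the median of active genes. DMSO libraries were at 171 and 196 FPKM, 50 nM libraries at 72.4 and 86.3 FPKM, and 250 nM libraries at 43.2 and 40.1 FPKM. The log2 fold changes against DMSO were -1.20 ± 0.12 (adjusted p = 7.12e-05) and -2.11 ± 0.12 (adjusted p = 2.27e-06), leaving 43.3% and 22.7% of the DMSO level. At 250 nM 17.3% of active genes fell more in Cov. The 250 nM and 50 nM groups of MCL1 in Cov were apart as well (-0.91, adjusted p = 0.000576), although with a library left out this adjusted p rose to as much as 0.00328.

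BCL2L1 (chr20:30252255-30311792, minus strand), whose product protects most epithelial cells, was the most abundant member in Ku. In Ku DMSO libraries it stood at 214 and 199.8 FPKM, with 168 and 164 FPKM at 50 nM and 26.8 and 30.7 FPKM at 250 nM. Cov cells had 142 and 157 FPKM, then 64.3 and 60.6 FPKM, then 28.4 and 29.6 FPKM. No group overlapped another in either line, and the duplicates of BCL2L1 lay closer together than those of MCL1. In Ku the change was -0.32 ± 0.08 at 50 nM (adjusted p = 0.0186), short of both limits of a call, and -2.81 ± 0.08 at 250 nM (adjusted p = 6.52e-06). In Cov it was -1.24 ± 0.09 (adjusted p = 2.67e-05) and -2.32 ± 0.09 (adjusted p = 9.04e-07). With equal medians and median of ratios BCL2L1 at 50 nM was at -0.03 and -0.22 in Cov, where the call was lost, and at 0.39 and 0.24 in Ku. The level left at 250 nM was 13.9% of DMSO in Ku and 19.4% in Cov.

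The other survival genes were scarcer. BCL2L2 (chr14:23767999-23780960, plus strand) had 31.3 and 27.3 FPKM in Ku DMSO libraries, 10.1 and 9.05 FPKM at 50 nM, and 9.65 and 10.1 FPKM at 250 nM. Cov libraries read 11.7 and 12.1 FPKM, then 3.13 and 4.34 FPKM, then 4.32 and 3.96 FPKM. Thus on the spike-in scale BCL2L2 was already down to 32.7% of DMSO in Ku and 31.4% in Cov at the low dose, and the 50 nM and 250 nM libraries overlapped in both lines. The change at 50 nM was -1.52 ± 0.11 in Ku (adjusted p = 0.000351) and -1.46 ± 0.14 in Cov (adjusted p = 6.79e-05). At 50 nM 4.52% of active genes fell more in Ku and 10.9% in Cov, and at 250 nM 33.4% and 49.0%. From 50 to 250 nM the difference was 0.04 in Ku (95% interval -0.23 to 0.31) and 0.13 in Cov (95% interval -0.20 to 0.46). With equal medians and median of ratios this step was 1.24 and 0.87 in Ku, called higher on both (adjusted p = 0.000266 and 0.000216). In Cov it was 0.88 and 0.63, not called. At 50 nM against DMSO BCL2L2 was on these scales at -0.84 and -0.98 in Ku, the second still called. In Cov it was at -0.39 and -0.55, where the call was lost. Against DMSO at 250 nM the sign of BCL2L2 depended on the scale (0.40 in Ku and 0.49 in Cov with equal medians, beside 0.30 and 0.33 for the median of active genes, and -0.10 and 0.081 with median of ratios).

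BCL2L2 shares its sequence with BCL2L2-PABPN1, a readthrough gene with a row of its own, and FPKM may be split between these rows in a way the tables do not show. That row went from 89.6 ± 5.48 FPKM (SD, n = 2) in Ku DMSO libraries to 51.5 ± 7.46 at 50 nM and 41.1 ± 2.57 at 250 nM, and was not called at 50 nM (-0.79, adjusted p = 0.00229). In Cov it went from 81.0 ± 3.56 FPKM to 41.4 ± 2.52 and 36.0 ± 0.67, called lower at both doses (-0.95 and -1.15). PABPN1, a poly(A)-binding protein gene downstream of BCL2L2, was at 27.2 ± 0.94, 16.4 ± 1.49 and 9.89 ± 1.97 FPKM in Ku. The readthrough row therefore stood nearer to DMSO than BCL2L2 did at 50 nM by these values, a difference that was not tested.

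BCL2 itself (chr18:60790579-60987361, minus strand) was near the lower end of measurement. Ku libraries read 1.52 and 1.05 FPKM in DMSO, 0.765 and 0.993 FPKM at 50 nM and 0.375 and 0.247 FPKM at 250 nM. Cov libraries read 2.94 and 2.39, then 1.45 and 1.89, then 1.35 and 0.994 FPKM. Groups of BCL2 were in dose order without overlap in both lines, but neither dose was called: at 250 nM the change was -0.79 ± 0.12 in Ku (adjusted p = 0.00107) and -0.76 ± 0.13 in Cov (adjusted p = 0.001005), both just beyond the threshold, and in Cov the sign turned with equal medians. Leaving out Ku DMSO replicate 2, or either Cov 50 nM replicate, brought BCL2 under it (adjusted p = 0.000756, 0.000176 and 0.000174). With 0.1 in place of 1 added to FPKM the Ku change of BCL2 was -1.75 and called (adjusted p = 0.000572), and with the 1 FPKM minimum set on condition means BCL2 was called in both lines (adjusted p = 0.000923 in Ku and 0.000884 in Cov).

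BCL2A1 (chr15:80253234-80263538, minus strand), an NF-kappaB target best known from blood cells, was not detectable in Ku. Its 6 Ku values, 0.118 and 0.119, 0.107 and 0.103, 0.0783 and 0.0822 FPKM, equal the low value that 5278 rows share in each library, and no fold change is given. Cov libraries had 0.963 and 1.33 FPKM in DMSO, 0.379 and 0.783 FPKM at 50 nM and 0.206 and 0.160 FPKM at 250 nM. Only DMSO replicate 2 was above the minimum of 1 FPKM, so BCL2A1 entered the test through the group where it was high. The change at 250 nM was called (-0.86 ± 0.14, adjusted p = 0.000557), but without Cov DMSO replicate 2 it was -0.73 (adjusted p = 0.00371), and without 250 nM replicate 1 or 2 it was -0.88 and -0.83 (adjusted p = 0.00171 and 0.00233). With no minimum on FPKM it was not called either (adjusted p = 0.00127), and with 0.1 in place of 1 added to FPKM the change of BCL2A1 was -2.13.

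Of the effectors, BAX kept more of its DMSO level than BAK1 at 250 nM by the values, a difference that was not tested. BAX (chr19:49458072-49465055, plus strand), whose protein moves from the cytosol to mitochondria, had 69.4 and 61.8 FPKM in Ku DMSO libraries, 32.8 and 29.7 FPKM at 50 nM and 28.05 and 24.8 FPKM at 250 nM. Cov libraries had 54.6 and 57.6 FPKM, 23.7 and 29.0 FPKM, and 23.4 and 26.4 FPKM. Like BCL2L2, BAX had made most of its change at 50 nM on the spike-in scale, to 47.6% of DMSO in Ku (-1.05 ± 0.10, adjusted p = 0.000662) and 47.0% in Cov (-1.07 ± 0.12, adjusted p = 0.000121). At 250 nM 40.2% and 44.4% were left (-1.28 ± 0.10, adjusted p = 5.08e-05, and -1.14 ± 0.12, adjusted p = 4.66e-05), and the sign turned in both lines on other scales given below. Between the doses BAX differed by -0.24 in Ku (95% interval -0.48 to 0.0097) and -0.07 in Cov (95% interval -0.35 to 0.21), and the Cov groups overlapped. With equal medians and median of ratios BAX at 50 nM was at -0.35 and -0.50 in Ku and at 0.12 and -0.06 in Cov. None of these was called.

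The calls of BCL2L2 and BAX in Ku at 50 nM were close to the threshold. With any 1 of the 6 Ku libraries left out, the adjusted p was between 0.00131 and 0.00323 for BCL2L2 and between 0.00190 and 0.00524 for BAX, so that none of the 9 members was called lower. At an adjusted p under 0.05, 4 of 9 members were called lower in Ku at 50 nM (BCL2L2, BAX, BAK1 and BBC3), against 40.2% of active genes. In Cov at 50 nM, leaving out DMSO replicate 2 ended the calls of BCL2L2, BAX and BBC3 (adjusted p = 0.00102, 0.00149 and 0.00236) and left 3 members called lower, and leaving out DMSO replicate 1 ended that of BBC3 (adjusted p = 0.00215).

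BAK1 (chr6:33540324-33548070, minus strand), whose protein sits in the outer membrane and is held there by MCL-1 and BCL-xL, went down stepwise on the spike-in scale. Ku libraries read 42.8 and 37.9 FPKM in DMSO, 24.6 and 24.4 FPKM at 50 nM and 5.81 and 6.02 FPKM at 250 nM. Cov libraries read 27.7 and 29.5 FPKM, then 10.6 and 11.5 FPKM, then 4.48 and 4.74 FPKM. Every step was larger than the gap between duplicates. The Ku change was -0.70 ± 0.09 at 50 nM, not called (adjusted p = 0.00164), and -2.58 ± 0.09 at 250 nM (adjusted p = 7.03e-06). Cov changes were -1.30 ± 0.09 (adjusted p = 2.83e-05) and -2.40 ± 0.09 (adjusted p = 9.39e-07). With equal medians and median of ratios BAK1 at 50 nM was at -0.01 and -0.15 in Ku. In Cov it was at -0.14 and -0.32 on these scales, where the call was lost. At 250 nM 14.7% of the DMSO level was left in Ku and 16.2% in Cov, shares closer to those of MCL1 and BCL2L1 than to those of BAX.

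**Figure D2:**
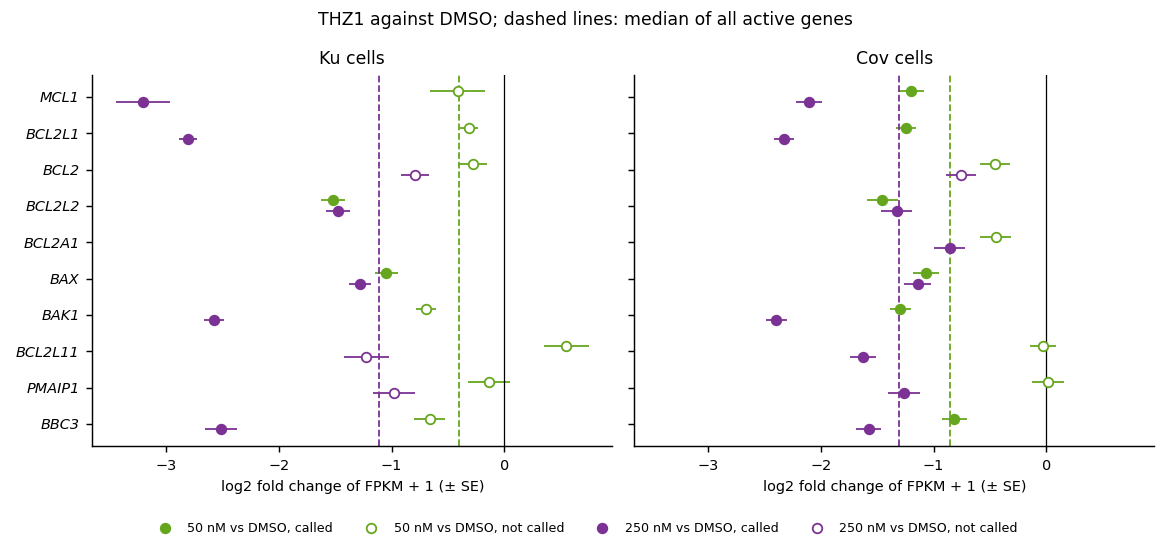
Log2 fold change of FPKM + 1 against DMSO (± SE, 2 libraries per group) of the members at 50 nM (green) and 250 nM (purple), filled where called, with dashed lines at the median of all active genes (-0.40 and -1.11 in Ku, -0.85 and -1.31 in Cov). BCL2L11, PMAIP1 and BCL2 lay to the right of the 50 nM median in both lines. MCL1, BCL2L1, BAK1, BBC3, BCL2L11 and BCL2L2 lay to the left of the 250 nM median in both, BCL2L2 in Cov only just. All values are on the spike-in scale; scaled to equal medians, BAX, BCL2L2, BCL2L11 and PMAIP1 at 250 nM turned positive in both lines and BCL2 in Cov, where the median of all active genes was positive too (0.30 and 0.33).

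The BH3-only genes BCL2L11 and PMAIP1 were the members nearest to or above DMSO at the low dose. BCL2L11 (chr2:111876955-111926021, plus strand), a FOXO target whose product BIM binds all survival proteins, had 7.49 and 6.19 FPKM in Ku DMSO libraries, 11.9 and 9.14 FPKM at 50 nM and 1.94 and 2.80 FPKM at 250 nM. Both 50 nM libraries were above both DMSO libraries, at 154% of their mean, yet the difference did not pass the test (0.55 ± 0.20, adjusted p = 0.0561). In this contrast 99% of active genes had a lower fold change than BCL2L11, and 0.0842% of active genes were called higher. In Cov the libraries read 14.2 and 14.8 FPKM, then 14.9 and 13.4 FPKM, then 4.44 and 3.62 FPKM, so that DMSO and 50 nM overlapped (-0.03, 95% interval -0.31 to 0.24). With equal medians and median of ratios BCL2L11 at 50 nM was at 1.15 and 1.02 in Ku and at 1.10 and 0.91 in Cov, not called on either.

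At 250 nM BCL2L11 was below DMSO in both lines on the spike-in scale, and with equal medians at 0.36 and 0.20, beside a median of active genes of 0.30 in Ku and 0.33 in Cov. Its change was -1.62 ± 0.12 in Cov (adjusted p = 6.95e-06) and -1.23 ± 0.20 in Ku, which missed the call (adjusted p = 0.00127) but was -1.51 and called with 0.1 added to FPKM (adjusted p = 0.000598), and called with a minimum of 10 FPKM (adjusted p = 0.000705). The step between the doses was -1.78 in Ku (adjusted p = 0.000458) and -1.59 in Cov (adjusted p = 7.26e-05). In Ku this call was lost with any 1 library left out (adjusted p = 0.00104 to 0.00356) and with the replicate number as a block (adjusted p = 0.00106). Over the active genes, 36% were called lower between 50 and 250 nM in Ku and 24.4% in Cov, and 0.0421% and 0.0842% were called higher. Of the members, 5 of 9 were called lower there in Ku (MCL1, BCL2L1, BAK1, BCL2L11 and BBC3), and 5 of 10 in Cov (MCL1, BCL2L1, BAK1, BCL2L11 and PMAIP1). Without Ku 50 nM replicate 1 or 2, 2 members stayed past the threshold in Ku, since MCL1 (adjusted p = 0.00164 and 0.00112) and BBC3 (0.00108 and 0.00101) also missed it, and without Ku 250 nM replicate 1 or 2 BBC3 did (adjusted p = 0.00165 and 0.00110).

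PMAIP1 (chr18:57567228-57571537, plus strand) encodes NOXA, which binds MCL-1 and sends it to the proteasome. Its libraries read 12.2 and 11.6 FPKM in Ku DMSO, 13.1 and 8.75 FPKM at 50 nM and 5.86 and 5.22 FPKM at 250 nM. In Cov they read 22.2 and 25.7 FPKM, then 21.3 and 27.5 FPKM, then 9.83 and 8.96 FPKM. At 50 nM the values overlapped DMSO in both lines, at -0.13 in Ku (95% interval -0.60 to 0.33) and 0.02 in Cov (95% interval -0.32 to 0.35). With equal medians and median of ratios PMAIP1 at 50 nM was at 0.50 and 0.37 in Ku and at 1.18 and 0.99 in Cov, not called on either (adjusted p = 0.00131 and 0.00187 in Cov). These intervals on the spike-in scale do not show that PMAIP1 was level, and the one in Cov lies above the median of all active genes (-0.85). At 250 nM PMAIP1 was at 46.7% of DMSO in Ku (-0.98 ± 0.19, adjusted p = 0.00286, not called, but called without Ku 50 nM replicate 1 or 2, at 0.000888 and 0.000814, and with only the 2 groups fitted, at 0.000850) and 39.2% in Cov (-1.26 ± 0.14, adjusted p = 7.10e-05), with the sign turned on other scales in both lines. Between the doses in Cov the change was -1.28 (adjusted p = 0.000310), with 0.00103 and 0.00157 when either 250 nM replicate was left out, which left 3 members called.

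BBC3 (chr19:47724079-47736023, minus strand), the gene of PUMA, kept the smallest share of its DMSO level. Ku libraries read 6.30 and 6.49 FPKM in DMSO, 3.38 and 3.98 FPKM at 50 nM and 0.183 and 0.411 FPKM at 250 nM. Cov libraries had 3.18 and 3.10 FPKM, then 1.18 and 1.52 FPKM, then 0.285 and 0.499 FPKM. By raw FPKM 4.65% of the DMSO level was left at 250 nM in Ku and 12.5% in Cov, below every other measurable member in each line. These 250 nM libraries stood at 2.33 and 5.00 times the shared low value in Ku and at 3.03 and 4.75 times in Cov. The shares and their rank thus rest on values near the lower end of measurement. The fitted change was -2.52 ± 0.14 in Ku (adjusted p = 1.74e-05) and -1.58 ± 0.11 in Cov (adjusted p = 6.68e-06). At 50 nM it was -0.66 in Ku (adjusted p = 0.00945, not called) and -0.82 in Cov (adjusted p = 0.000312). The Cov call of BBC3 at 50 nM was lost with 0.1 added to FPKM (adjusted p = 0.00194) and with no minimum on FPKM (adjusted p = 0.00131). It was lost on the other scales too, where BBC3 was at -0.00022 with equal medians and at -0.12 with median of ratios. With 0.1 added, BBC3 at 250 nM was at -4.09 in Ku and -2.75 in Cov.

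**Figure D3:**
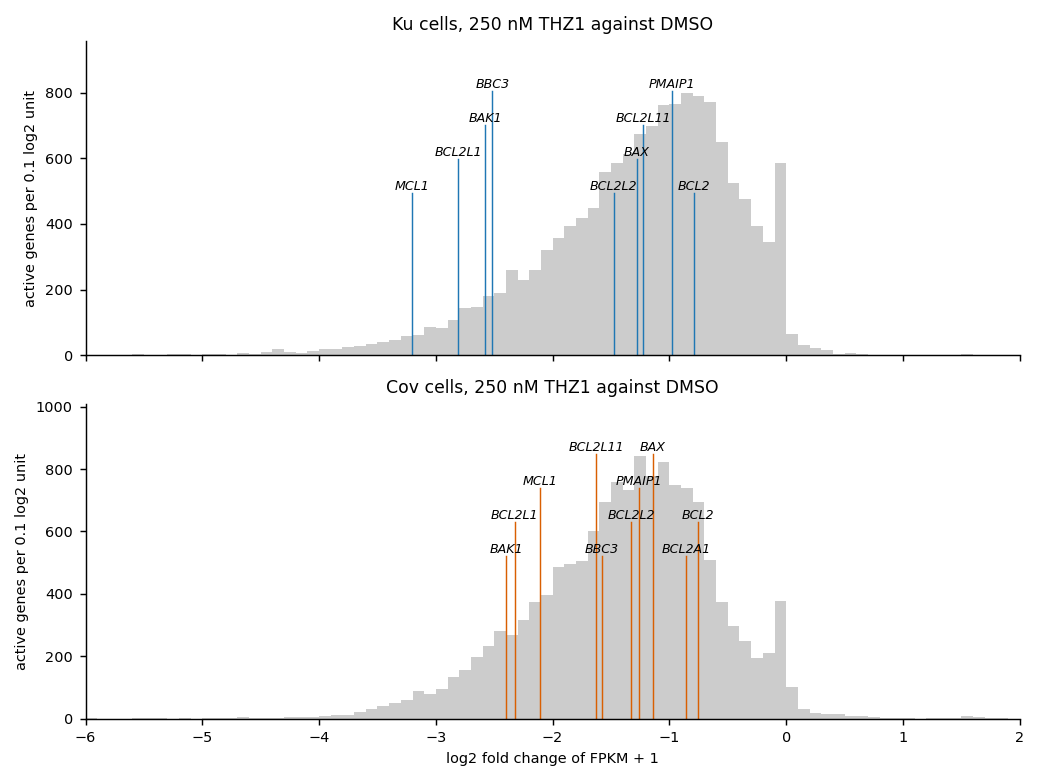
Number of active genes per 0.1 log2 unit of fold change at 250 nM THZ1 against DMSO (grey bars) with the members as vertical lines, whose heights only separate the labels. On the spike-in scale the bulk of genes lay below 0, and MCL1, BCL2L1, BAK1 and BBC3 were in the lower tail in Ku, where 2.60% to 8.12% of active genes fell more.

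Since nearly all genes fell on the spike-in scale, the members were also looked at with each library brought to the same median or to a median of ratios, scales that take the common fall out. With equal medians the median change of active genes at 250 nM was 0.30 in Ku and 0.33 in Cov, and with median of ratios it was -0.00088 and 0.011. With equal medians 11.7% of active genes were called lower and 27% higher in Ku, and 11.3% and 26.6% in Cov. With median of ratios these shares were 19% and 11.1%, and 18.9% and 8.57%. On these scales MCL1 at 250 nM was at -1.29 and -1.80 in Ku, and at -0.06 and -0.51 in Cov, not called in any. BCL2L1 was at -0.86 and -1.37 in Ku, called lower on both, and at -0.28 and -0.74 in Cov, called on the median of ratios. BAK1 was called lower on both scales in both lines, at -0.75 and -1.23 in Ku and at -0.51 and -0.93 in Cov. BBC3 was called lower on both scales in Ku (-1.55 and -1.74) and on none in Cov (-0.53 and -0.72). BAX instead turned positive on both scales, at 0.66 and 0.14 in Ku and at 0.88 and 0.43 in Cov, and the first of the Cov values was called higher. PMAIP1 turned positive too, at 0.80 and 0.32 in Ku and at 0.69 and 0.25 in Cov. BCL2L11 was at 0.36 and -0.07 in Ku and at 0.20 and -0.21 in Cov. BCL2L2 turned positive with equal medians in both lines and with median of ratios in Cov, as did BCL2 on both scales in Cov (0.59 and 0.26). Scaling moves the log2(FPKM + 1) of abundant members by nearly the same amount and that of scarce members by less, so that BBC3, BCL2 and BCL2A1 changed place in the order of the members.

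The shares of the genes in the family total are of the mean FPKM of the 2 libraries of a group, so a scale common to both does not alter them. In Ku DMSO libraries BCL2L1 made 41.2% of the summed mean FPKM of the 10 genes, MCL1 26.5%, BAX 13.1% and BCL2L2 5.85%. At 50 nM BCL2L1 made 46.5%, MCL1 27.9%, BAX 8.76% and BCL2L2 2.68%. At 250 nM BCL2L1 made 30.7%, BAX 28.2%, MCL1 14.95% and BCL2L2 10.6%. BAX was thus behind MCL1 at the low dose and ahead of it at the high dose in Ku. In Cov MCL1 led at every dose, with 38.6%, 35.3% and 34.9%, followed by BCL2L1 with 31.5%, 27.7% and 24.3% and BAX with 11.8%, 11.7% and 20.8%. PMAIP1 took 5.05% of the Cov total without THZ1, 10.8% with 50 nM and 7.87% with 250 nM. In DMSO libraries the neighbours BCL2L1, MCL1, BAX and BAK1 did not overlap in either line. At 250 nM BCL2L1 and BAX overlapped in Ku (26.8 to 30.7 against 24.8 to 28.05 FPKM), whereas in Cov BCL2L1 (28.4 to 29.6) stayed above BAX (23.4 to 26.4).

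**Figure D4:**
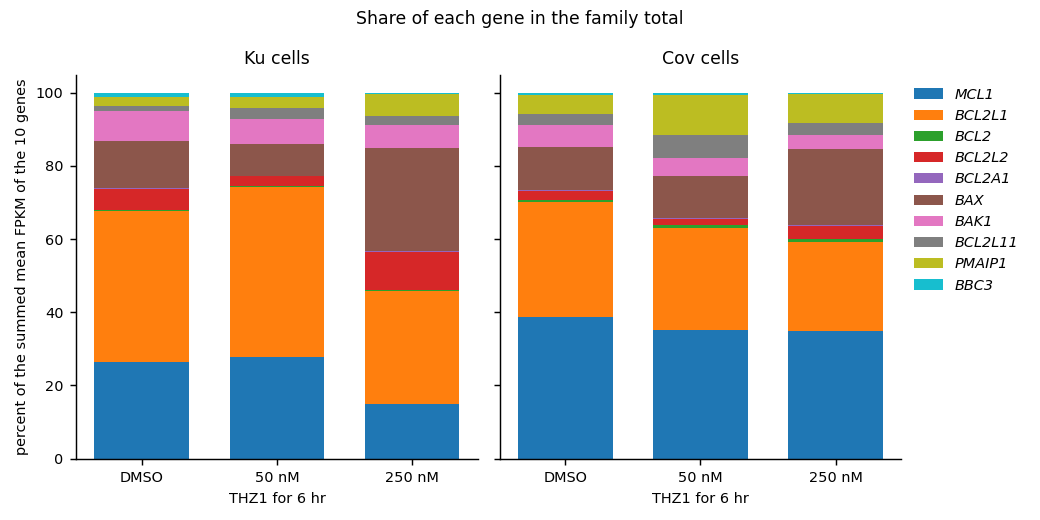
Percent of the summed mean FPKM of the 10 genes (2 libraries per bar, no error shown) taken by each gene at DMSO, 50 nM and 250 nM THZ1. In Ku BAX took 13.1%, 8.76% and 28.2% of the bar and MCL1 26.5%, 27.9% and 14.95%, and in Cov BAX took 11.8%, 11.7% and 20.8% while MCL1 stayed between 34.9% and 38.6% in Cov.

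Ratios of a pair of members within a library, which no scaling can alter, were tested against dose order in an exact two-sided permutation test over the 6 libraries of a line. The smallest p that this test can give is 0.0222, and with Benjamini-Hochberg adjustment over the 10 tests none passed 0.05. BCL2L11 over MCL1 in Ku was 0.0514 ± 0.0021 in DMSO (SD, n = 2), 0.105 ± 0.0095 at 50 nM and 0.174 ± 0.025 at 250 nM. It rose with dose without overlap (exact permutation p = 0.0222, adjusted 0.0741). In Cov the ratio went from 0.0791 ± 0.0054 to 0.180 ± 0.036 and back to 0.0966 ± 0.0091 (exact permutation p = 0.711), highest at the low dose.

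PMAIP1 over MCL1 in Ku averaged 0.0896 ± 0.0052 without THZ1, 0.109 ± 0.020 with 50 nM and 0.436 ± 0.20 with 250 nM (exact permutation p = 0.0222, adjusted 0.0741). At 250 nM it stood 4.60-fold above DMSO by the mean of log ratios. Cov values were 0.131 ± 0.00062, 0.306 ± 0.018 and 0.226 ± 0.0032, again highest at 50 nM, with both doses above DMSO in every library (exact permutation p = 0.222). PMAIP1 was not called higher at any dose, and most active genes fell less than MCL1 at 250 nM, where 2.60% in Ku and 17.3% in Cov fell more.

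BCL2L1 over BAX, a survival gene over an effector, was 3.16 ± 0.11 in Ku DMSO libraries, 5.32 ± 0.27 at 50 nM and 1.10 ± 0.20 at 250 nM (exact permutation p = 0.178). The ratio was above DMSO in both 50 nM libraries and below it in both 250 nM libraries. In Cov it was 2.66 ± 0.096, 2.40 ± 0.44 and 1.17 ± 0.065 (exact permutation p = 0.0444, adjusted 0.111). MCL1 over BAK1 in Cov was 6.41 ± 0.34, 7.18 ± 0.50 and 9.04 ± 0.83 (exact permutation p = 0.0222, adjusted 0.0741), and in Ku 3.29 ± 0.026, 4.06 ± 0.38 and 2.35 ± 0.86 (exact permutation p = 0.356). MCL1 over BCL2L1 changed least, from 0.642 ± 0.030 to 0.480 ± 0.14 in Ku (exact permutation p = 0.0889, adjusted 0.178) and from 1.23 ± 0.029 to 1.44 ± 0.12 in Cov (exact permutation p = 0.222).

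**Figure D5:**
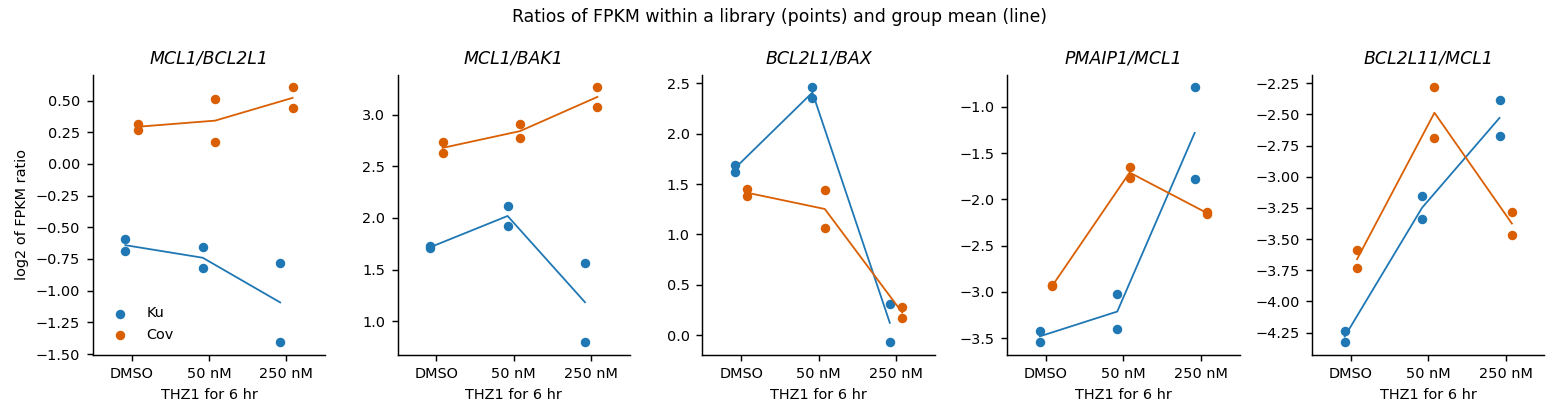
Log2 of the FPKM ratio of 5 pairs of members in each library (points) and group means (lines) by THZ1 dose, with Ku in blue and Cov in orange. PMAIP1 and BCL2L11 relative to MCL1 were above DMSO in every treated library of both lines, and BCL2L1 relative to BAX was below DMSO in all 250 nM libraries.

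A strict decrease with dose, with no overlap between DMSO, 50 nM and 250 nM libraries, was seen on the spike-in scale for 6 of 9 members in Ku (MCL1, BCL2L1, BCL2, BAX, BAK1 and BBC3), against 66.7% of active genes. In Cov it was seen for 6 of 10 members (MCL1, BCL2L1, BCL2, BCL2A1, BAK1 and BBC3), against 73.8%. Of these, BCL2A1 was among the active genes only through Cov DMSO replicate 2, which favours such an order, so it gives no support to the count. BCL2L2, BCL2L11 and PMAIP1 broke the order in both lines, the first between 50 and 250 nM and the others between DMSO and 50 nM.

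The genes most like MCL1 over the 12 libraries, by the root-mean-square difference of log2(FPKM + 1) from the DMSO mean of the line, were ZBTB5 (0.20), ZBTB24 (0.21) and ARHGAP35 (0.22). BCL2L1 was nearly as close to MCL1 (0.24), with 6 active genes nearer. For BCL2L1 the nearest were PPP1R18 (0.066), BCL9 (0.11) and MKL1 (0.11), and BAK1 stood at 0.19 with 42 genes nearer. BAX was 0.94 from MCL1 and 0.85 from BCL2L1, with 6317 and 6595 active genes nearer.

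Genes of the pathway that are not members are given on the spike-in scale only. Of 13 further genes of the family 9 were active, and none was called by limma in Ku at 50 nM (4 lower and 1 higher at an unadjusted p under 0.05), 6 were called lower in Ku at 250 nM, 6 in Cov at 50 nM and 9 in Cov at 250 nM. Over all active genes the shares called lower were 11.3% in Ku at 50 nM, 68.6% in Ku at 250 nM, 70.5% in Cov at 50 nM and 84% in Cov at 250 nM, and the counts of this list and of those that follow stand beside these shares. The median change of the 9 genes at 250 nM was -1.02 in Ku and -1.18 in Cov, beside -1.11 and -1.31 for all active genes. BMF, a BH3-only gene, went from 16.2 ± 0.95 FPKM (SD, n = 2) in Cov DMSO libraries to 3.18 ± 0.48 and 0.994 ± 0.075, a change of -3.11 at 250 nM (adjusted p = 9.06e-07). BOK, an effector-like gene, changed by -2.48 in Ku (adjusted p = 1.33e-05) and by -2.08 in Cov (adjusted p = 1.73e-06) at 250 nM. BIK in Ku, another BH3-only gene, stood at 0.581 ± 0.27 FPKM without THZ1, 1.39 ± 0.099 with 50 nM and 0.421 ± 0.094 with 250 nM, highest at 50 nM as BCL2L11 was, without passing the test (0.61, adjusted p = 0.00897). In Cov BIK was called lower at both doses (-0.72 and -1.52). BID, which caspase-8 cuts to activate BAX and BAK, kept 20.2 ± 0.68 of 28.2 ± 1.89 FPKM in Ku at 250 nM (-0.46, adjusted p = 0.00310, not called), and BAD changed by -0.88 in Cov (adjusted p = 5.97e-05).

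Of 8 genes that act after the membrane has opened 1 was called lower in Ku at 50 nM (HTRA2, -1.68), 7 in Cov at 50 nM and all 8 in both lines at 250 nM, against 11.3%, 70.5%, 68.6% and 84% of active genes. Their median change at 250 nM was -1.70 in Ku and -1.66 in Cov, beside -1.11 and -1.31 for all active genes. CYCS, which encodes cytochrome c, changed by -1.004 in Ku and -1.30 in Cov. Of the outer membrane channel genes at 250 nM, VDAC1 was at -0.61 in Ku (adjusted p = 0.000829) and -1.08 in Cov (adjusted p = 4.43e-05), VDAC2 at -0.62 and -1.15, and VDAC3 at -1.14 and -1.35. Of these 3 genes 2 were called lower in Ku at 250 nM and 3 in Cov. At 50 nM 2 were called lower in Cov and none in Ku by limma (1 at an unadjusted p under 0.05).

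Among enzymes that set how long MCL-1 protein lasts, HUWE1 and FBXW7, of the ubiquitin ligases that mark it, and USP9X, which removes the mark, were all called lower at 250 nM in both lines. Their median change was -1.16 in Ku and -1.47 in Cov, beside -1.11 and -1.31 for all active genes, of which 68.6% and 84% were called lower. At 50 nM HUWE1 and USP9X were called lower in Cov and none in Ku by limma (0 at an unadjusted p under 0.05). USP9X was the most reduced, at -1.47 in Ku (adjusted p = 0.000138) and -2.06 in Cov (adjusted p = 2.87e-06), and FBXW7 in Ku was at 10.5 ± 0.72 FPKM at 50 nM against 8.36 ± 0.33 in DMSO (0.29, adjusted p = 0.160).

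Of 10 transcription factors known to act on BH3-only genes 9 were active, with 5 called lower in Ku at 50 nM, 6 in Cov at 50 nM and 7 in each line at 250 nM, against 11.3%, 70.5%, and 68.6% and 84% of active genes. DDIT3, which encodes the stress factor CHOP, an activator of BCL2L11 and BBC3, went from 17.5 ± 2.15 to 1.89 ± 0.52 and 0.713 ± 0.20 FPKM in Ku, and from 56.2 ± 2.60 to 11.7 ± 1.74 and 2.01 ± 0.60 FPKM in Cov. Its change at 250 nM was -3.43 (adjusted p = 1.60e-05) and -4.26 (adjusted p = 9.04e-07). FOXO3, a regulator of BCL2L11, changed by -2.82 in Ku (adjusted p = 1.02e-05) and -2.57 in Cov (adjusted p = 1.28e-06). ATF3 and FOXO4 were the least reduced in Ku (-0.47 and -0.44, adjusted p = 0.0369 and 0.0355), and TP73 and FOXO4 in Cov (-0.30 and -0.40, adjusted p = 0.00684 and 0.00565). TP73 in Cov stood at only 0.499 ± 0.083 FPKM in DMSO libraries and 0.214 ± 0.010 at 250 nM. At such a level the 1 added to FPKM understates the change, so its place holds on this scale only.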

How the data were processed

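Polyadenylated RNA of 12 libraries was sequenced. The authors added ERCC RNAs by cell number, mapped the reads with HiSat to hg19, and deposited 1 table of FPKM for each line, made by cuffquant and cuffnorm and set to the ERCC RNAs. Versions and annotation are not given in the sources used here, and neither is how reads of overlapping genes were assigned. The authors' edgeR test needs counts, so limma 3.58.1 (R 4.3.3, mean-variance trend) was fitted to log2(FPKM + 1) of the 6 libraries of each line, two-sided, over 14251 active genes, without the 92 ERCC rows. Doses were compared with DMSO. The comparison of 250 with 50 nM was added after values were seen. Members, pathway lists and markers were chosen with earlier results of these data known. All members are named, with the lists' most and least changed genes at 250 nM, rows sharing sequence with a member, and the 3 genes most like MCL1 and BCL2L1. Others were chosen after their values were seen, and some listed genes are counted but not reported here by name. The fit and the permutation test (scipy 1.17.1) were tested on simulated data. Gene positions are from GENCODE lifted to GRCh37, and promoters from RefSeq on GRCh38.p14, not mixed with them. MCL1 and BAK1 overlap genes on the other strand that have rows (ADAMTSL4 and GGNBP1), as do BCL2L2 (HOMEZ and PPP1R3E) and BBC3 (MIR3191). The p values of the fit weigh a change against the spread between duplicates. That spread is pooled over the groups of a line and moderated over genes, so the 250 nM duplicates bear on the 50 nM comparisons. Pseudocount, low-value filter, scaling, block and leave-one-out alternatives are described in the closing section. Python 3.11.15 and matplotlib 3.10.9 drew the figures.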

Additional observations from a re-analysis of the deposited data

How the results depend on the processing

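With 2 libraries per group and unknown depth, small steps such as those at 50 nM in Ku could not be resolved for low genes. Members called lower in Ku at 50 nM numbered 2, but 0 with no minimum on FPKM, with equal-median scaling, with only the 2 groups fitted and in every fit with a library left out (0 to 0), 1 with median-of-ratios scaling and with no variance trend, and 4 at an adjusted p under 0.05. In Ku at 250 nM the 6 became 3 with either scaling. Between the doses in Ku the 5 became 2 with no minimum, 2 lower and 1 higher (BCL2L2) with either scaling, and 2 to 4 with a library left out. In Cov the 6 at 50 nM became 0 with either scaling and 3 to 7 with a library left out, the 9 at 250 nM became 1 lower and 1 higher with equal medians and 2 lower with median of ratios, and the 5 between the doses became 0 with either scaling and 3 to 6 with a library left out (BBC3 gained a call without 50 nM replicate 1, adjusted p = 0.000371). The replicate numbers did not pair the libraries (correlations of deviations from group means between -0.0087 and 0.00035 in Ku and between -0.070 and 0.028 in Cov). With the replicate number as a block, BCL2L11 in Ku (adjusted p = 0.00106) and MCL1 and PMAIP1 in Cov (0.00251 and 0.00174) missed the threshold between the doses. This left 3 members in Cov, and no other call of a member changed. The log2 change of MCL1 over BAK1 in Cov was 0.49, and 0.29 with 1 FPKM added to each gene, no longer at p under 0.05 unadjusted. With 0.1 in place of 1 added to FPKM, BCL2 and BCL2L11 in Ku at 250 nM gained a call, BBC3 in Cov at 50 nM lost its call and gained one between the doses, and low members had larger changes: in Ku at 250 nM BBC3 was at -4.09 and BCL2 at -1.75, and in Cov BBC3 was at -2.75 and BCL2A1 at -2.13. With equal medians these log2 fold changes turned positive: at 50 nM BCL2 0.084, BCL2L1 0.39, MCL1 0.29 and PMAIP1 0.50 in Ku, and BAX 0.12, BCL2 0.35, BCL2A1 0.081, BCL2L11 1.10 and MCL1 0.015 in Cov. At 250 nM these were BAX 0.66, BCL2L11 0.36, BCL2L2 0.40 and PMAIP1 0.80 in Ku, and BAX 0.88, BCL2 0.59, BCL2L11 0.20, BCL2L2 0.49 and PMAIP1 0.69 in Cov. Between doses these were BAX 1.01 and PMAIP1 0.30 in Ku and BAX 0.76 and BCL2 0.24 in Cov. With median of ratios they were BCL2 0.015, BCL2L1 0.24, MCL1 0.14 and PMAIP1 0.37 in Ku and BCL2 0.22, BCL2A1 0.0061 and BCL2L11 0.91 in Cov at 50 nM, BAX 0.14 and PMAIP1 0.32 in Ku and BAX 0.43, BCL2 0.26, BCL2L2 0.081 and PMAIP1 0.25 in Cov at 250 nM, and BAX 0.64 in Ku and BAX 0.49 and BCL2 0.047 in Cov between doses. By construction both scalings take out a common change, and equal medians left the median of active genes above 0 in each comparison. It was 0.11 in Ku and 0.13 in Cov at 50 nM, 0.30 and 0.33 at 250 nM, and 0.25 and 0.23 between the doses. Values near these are close to the median gene. Leaving out a library moved the sign of near-zero values: PMAIP1 at 50 nM ranged from -0.40 to 0.13 in Ku and from -0.16 to 0.19 in Cov, BCL2L11 in Cov from -0.11 to 0.041, and between the doses BCL2L2 from -0.031 to 0.11 in Ku and from -0.057 to 0.32 in Cov, and BAX in Cov from -0.21 to 0.065.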
